A study of Mus musculus with 18 samples.

Results

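NIH3T3 cells, an immortalised line of mouse embryo fibroblasts, were followed through the interval from 4 h to 8 h after a pulse of dexamethasone. Dexamethasone is a synthetic agonist of the glucocorticoid receptor. All cells had received 100 nM of it for 2 h, and the change to normal culture medium that ended the pulse was 0 h. The 4 libraries of the step, replicates 1 and 2 at 4 h and replicates 1 and 2 at 8 h, were chosen by their time labels from 18 libraries taken every 4 h up to 32 h, 2 at each time. The comparison asks which changes of the early response ended and which went on. The libraries at 0 h show what the first 4 h had done, and those at 28 h and 32 h show the same step 1 day later. Every library came from pulsed cells, so no value has an untreated reference. The labels do not say whether replicates were separate cultures, and p-values then measure only the spread between these libraries.

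A medium change with fresh serum and a glucocorticoid pulse both set circadian clocks in cultured fibroblasts. Growth factors in serum act through MAP kinase signalling, which within minutes switches on immediate early genes whose transcripts decay quickly. Glucocorticoid-bound receptor directly switches on its own targets, among them Per1. The circadian clock is a loop in which CLOCK and BMAL1 (Arntl) activate Per, Cry and Nr1d genes through E-boxes, and the products repress that activation.

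Depth in the 4 libraries was 26.7 to 35.0 M reads in genes, and levels are given as normalized reads, that is read counts divided by a size factor for each library. Of 12 fibroblast markers all were in the table, Col1a1, Vim and Fn1 among the highest, while Lum was at 1.94 to 5.75 normalized reads and Dcn at 209 to 302. Over the whole series depth was 25.4 to 38.9 M reads, and the top 10 genes of a library held 5.70% to 8.09% of it. The replicate values differed by more than counting noise at both times.

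Between 4 h and 8 h the larger changes were mostly falls. Among 12393 tested genes, those whose mean reached 10 normalized reads, 1395 (11.3%) passed at an adjusted p of 0.05 in limma, 600 higher at 8 h (4.84%) and 795 lower (6.41%). Falls of at least 2-fold numbered 63 against 15 rises of that size, and those of at least 1.5-fold 249 against 87. With the replicate number as a block 3043 genes passed. Omitting 8 h replicate 1 left 744 passing genes, omitting 4 h replicate 2 left 572 and omitting 8 h replicate 2 left 679. Rescaling the libraries to equal totals raised the median of all genes from -0.004 to 0.10 on the log2 scale, and 2381 genes then passed, 1869 higher and 512 lower. The share of higher genes among those passing was thus 43.0% with the deposited scaling and 78.5% with equal totals. The direction of a small change is therefore tied to the scaling. The balance of larger changes shifted too: with equal totals falls of at least 2-fold numbered 51 against 31 rises. None of the 115 named genes that passed changed sign under an alternative (24 of the 77 that did not pass did). Many of the 115 were picked for a large change or a small p, and some alternatives leave every estimate as it is. Their count therefore does not speak for the 1395 passing genes as a whole. Changes are log2(value + 1) differences ± SE, a scale that understates the change of low genes, and each adjusted p is from limma. In a bulk culture fewer cells of a kind and less RNA per cell cannot be told apart.

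**Figure D1:**
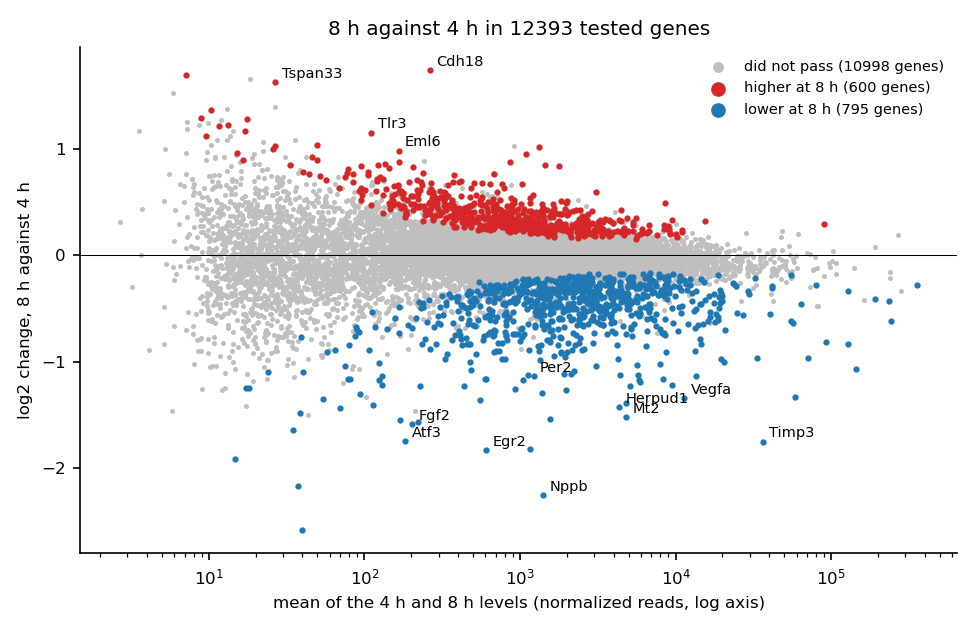
Change from 4 h to 8 h (vertical axis, log2) against the mean level of the 4 libraries (horizontal axis, normalized reads, log scale); each point is 1 of 12393 tested genes. Red points are the 600 genes higher at 8 h, blue points the 795 lower ones; the strongly expressed genes that moved most, such as Timp3, Vegfa and Nppb, lie below 0.

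Immediate early genes, whose transcription is induced without new protein synthesis and many of which encode transcription factors, fell in this step as they had in the step before. Of 26 tested members 12 fell from 4 h to 8 h, 0 rose and 14 did not pass; the step from 0 h to 4 h, which shares the 4 h libraries, had 20 falls and 1 rise (11.0% of all tested genes rose and 10.5% fell in that step; 51.1% of its calls were rises, or 61.4% with equal totals). The median change of the list was -0.49 from 4 h to 8 h, beside -0.004 over all tested genes. With the replicate block 17 members were lower and 1 higher in that step. Egr2, a zinc finger factor, had 3095 and 4306 normalized reads in replicates 1 and 2 at 0 h, 978 and 925 at 4 h and 271 and 262 at 8 h (log2 change -1.83 ± 0.13, adjusted p = 2.00e-06). Each time point lay wholly below the one before. Atf3, a stress-induced bZIP factor, went from 282 and 283 to 81.9 and 85.1 (log2 change -1.75 ± 0.18, adjusted p = 5.17e-05) after 715 and 847 at 0 h. Nr4a1, an orphan nuclear receptor chosen here after its values were seen, fell from 5722 and 5589 to 2983 and 2783 (log2 change -0.97 ± 0.11, adjusted p = 7.77e-05). Both genes had fallen in the earlier step as well. Maff, a small MAF factor, was at 2163 and 2129.5 at 0 h, 1465 and 1619 at 4 h and 728 and 687 at 8 h (log2 change -1.12 ± 0.08, adjusted p = 2.00e-06); its log2 change in the first interval was -0.48. Fosl2, an AP-1 subunit, fell by 1.46-fold and Ier5 by 1.41-fold.

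Other members fell from 0 h to 4 h and did not pass afterwards. Egr3 stood at 329.6 and 571 at 0 h, 64.0 and 28.3 at 4 h and 54.6 and 48.3 at 8 h (adjusted p for 8 h against 4 h = 0.704), and the 2 later times overlapped. Junb read 2492 and 3648, 715 and 650.0 and 548 and 401 at the same times and did not pass (adjusted p = 0.0640; 0.0134 with the replicate block, 0.0333 in DESeq2 and 0.0348 omitting 8 h replicate 1). Egr1, by contrast, had 1727 and 3562 at 0 h, 558 and 439 at 4 h and 854 and 843 at 8 h; both 8 h libraries were above both 4 h libraries, but the difference did not pass (log2 change 0.78 ± 0.27, adjusted p = 0.0877; 0.00482 with the block, 0.0364 with equal totals and 0.0212 in the 4 libraries alone). Junb and Egr1 were chosen after their values were seen.

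The CArG box, the binding element of serum response factor (SRF), occurred in 3 of the 20 tested immediate early genes with a promoter in the RefSeq table, and in 8 of 21 SRF and MRTF cytoskeletal targets, against 1.81% of the 27025 genes of that table; a gene counts where any of its promoters holds the motif. Among the genes with the box, Zfp36, Cnn2 and Myl9 did not pass from 4 h to 8 h. The cAMP response element TGACGTCA was in 2 of the 20 immediate early genes and in 2.03% of all genes. Promoters span 250 bases before to 50 after each RefSeq start on GRCm38.p6, both strands were searched, and a match is a description of letters only. The windows of Egr2, Srf itself and 3 cytoskeletal targets described below are shown 5′ to 3′ on the strand of the gene, upstream of its start, with the box in capitals.
Egr2, chr10:67537777-67537826, plus strand: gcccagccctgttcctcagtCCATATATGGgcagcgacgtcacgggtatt
Srf, chr17:46556195-46556264, minus strand: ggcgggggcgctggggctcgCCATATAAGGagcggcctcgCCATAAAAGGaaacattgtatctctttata
Vcl, chr14:20929151-20929200, plus strand: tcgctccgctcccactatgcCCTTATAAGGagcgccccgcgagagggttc
Actg1, chr11:120348556-120348605, minus strand: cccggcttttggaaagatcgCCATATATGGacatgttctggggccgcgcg
Fhl2, chr1:43196828-43196877, minus strand: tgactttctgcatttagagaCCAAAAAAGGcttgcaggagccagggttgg

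Negative regulators of MAP kinase signalling, the Sprouty proteins and the dual-specificity phosphatases, fell as well. Of 17 tested members 8 fell, 0 rose and 9 did not pass (4 fell when 8 h replicate 1 was omitted, and 4 when 4 h replicate 2 was); from 0 h to 4 h 12 had fallen. With the replicate block 12 fell from 4 h to 8 h. Spry4, an inhibitor of receptor tyrosine kinase signalling, had 1421 and 1436 at 0 h, 740.3 and 727 at 4 h and 439.5 and 403 at 8 h (log2 change -0.80 ± 0.09, adjusted p = 8.33e-05). Dusp6, the ERK phosphatase, went from 2490.4 and 2570.3 to 1885 and 1824 (log2 change -0.45 ± 0.07, adjusted p = 0.000851) after 4861 and 4760.1 at 0 h. Its change in the first interval was -0.93 ± 0.07 (adjusted p = 1.52e-06). Dusp10, which acts on p38 and JNK, was at 2283 and 1615 at 0 h, 1940.0 and 1941 at 4 h and 1208 and 1164 at 8 h (log2 change -0.71 ± 0.11, adjusted p = 0.00104), and its change from 0 h to 4 h was 0.02 ± 0.11 (adjusted p = 0.937). Dusp5 fell by 1.74-fold (adjusted p = 0.00444, and 0.0519 omitting 8 h replicate 2).

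Growth factor transcripts were among the larger falls. Of 13 tested EGF receptor ligands and other growth factors 8 fell, 0 rose and 5 did not pass, with a median of -0.88; in the step before, which shares the 4 h libraries, 3 fell, 1 rose and the median was -0.23. Vegfa, the main angiogenic factor, had 22794 and 21184 at 0 h, 18428 and 14212 at 4 h and 7205 and 5640.4 at 8 h (log2 change -1.34 ± 0.16, adjusted p = 0.000172). Fgf2 went from 267 and 342 to 84.6 and 118 (log2 change -1.59 ± 0.29, adjusted p = 0.00284). Hbegf, a ligand of the EGF receptor, went from 4417 and 3819 to 2223 and 1783, and Ereg, another, from 5924 and 6071 to 2832 and 2681. All 4 of these genes had both 8 h libraries below both 4 h libraries. Hbegf (adjusted p = 0.000802) and Ereg (adjusted p = 0.000742) had fallen in the first interval too, with log2 changes of -1.12 and -0.97 beside -1.04 and -1.12 in the later one. Pdgfa, a ligand of the PDGF receptors, fell by 2.16-fold to 1508 and 1189.7 (adjusted p = 0.000757). Il11, a cytokine of the IL-6 family, was at 2557 and 1595 at 0 h, 2786 and 1859.9 at 4 h and 850.0 and 719.6 at 8 h (log2 change -1.54 ± 0.25, adjusted p = 0.00130).

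**Figure D2:**
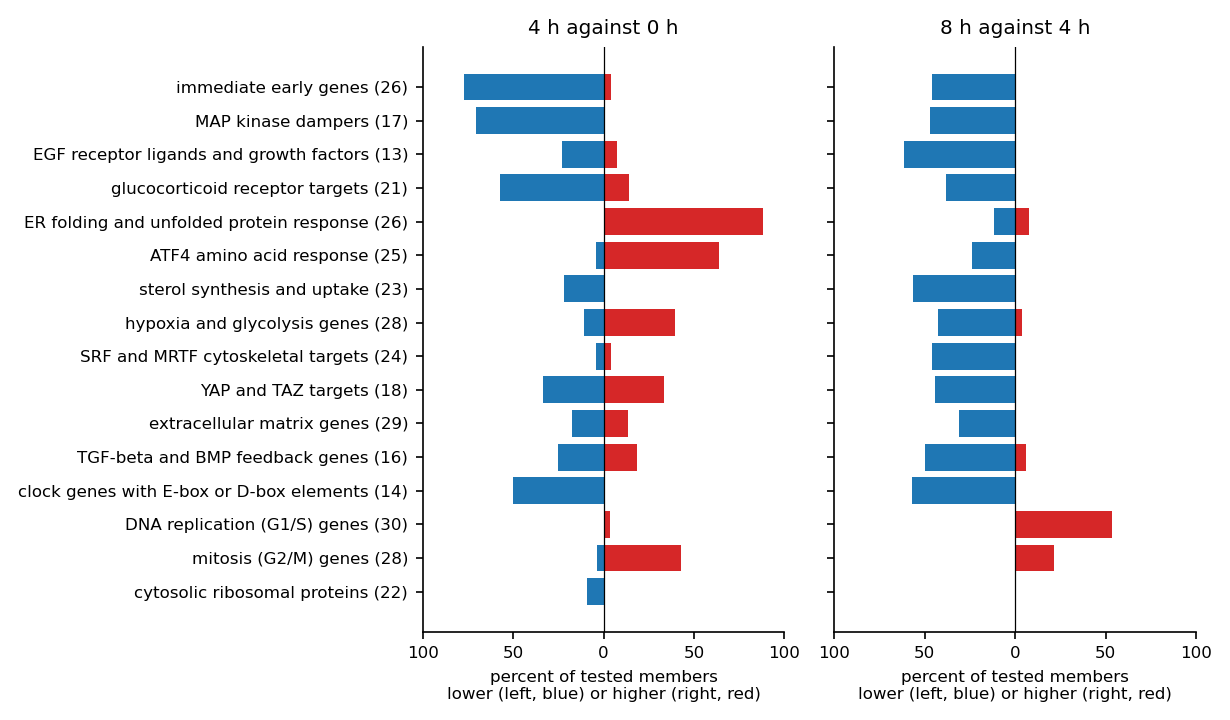
Share of the tested members of 16 gene lists (number tested in brackets) that passed as lower (blue, to the left) or higher (red, to the right), from 0 h to 4 h on the left and from 4 h to 8 h on the right. The 2 panels share the 4 h libraries; the ER and ATF4 lists are red on the left and partly blue on the right, immediate early genes are blue in both, and DNA replication genes are mostly red on the right; no difference between the panels was tested.

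Hypoxia and glycolysis genes, many of them targets of HIF-1, had risen in part by 4 h and then had more falls than rises. Of 28 tested members 12 fell from 4 h to 8 h, 1 rose and 15 did not pass (7 fell when 8 h replicate 1 was omitted, and 7 when 4 h replicate 2 was), whereas 11 rose and 3 fell from 0 h to 4 h. With the replicate block 18 fell and 1 rose from 4 h to 8 h. Ndrg1, a stress-responsive gene, read 9419 and 7634 at 0 h, 13192 and 13271 at 4 h and 6119.8 and 5301 at 8 h (log2 change -1.22 ± 0.10, adjusted p = 1.50e-05). Ankrd37 went from 348 and 314 to 129 and 95.4 (log2 change -1.57 ± 0.18, adjusted p = 0.000109). Ndrg1 had risen in the first interval and ended below its 0 h libraries, while the 0 h and 4 h libraries of Ankrd37 overlapped. Slc2a1, the glucose transporter GLUT1, fell by 2.00-fold to 15248 and 12024 (adjusted p = 0.000965; chosen after its values were seen). Pfkm, a phosphofructokinase, was the member that rose, from 2902 and 2781 to 3555 and 3512 (log2 change 0.31 ± 0.06, adjusted p = 0.00344). Kctd11, outside the list, fell from 2214 and 1418 to 559 and 448 (log2 change -1.82 ± 0.19, adjusted p = 4.97e-05).

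Among glucocorticoid receptor targets falls again outnumbered rises. Of 21 tested members 8 fell, 0 rose and 13 did not pass (5 fell without 4 h replicate 2, and 14 with the replicate block), after 12 falls and 3 rises from 0 h to 4 h. At an unadjusted p under 0.05 limma had 1 rise in the list, with the block 1 passed, and edgeR and DESeq2 called 0. Mt2 and Mt1, metallothioneins that bind zinc and copper, changed most. Mt2 had 8529 and 9079.5 at 0 h, 5975 and 8329 at 4 h and 2058 and 2922 at 8 h (log2 change -1.52 ± 0.18, adjusted p = 0.000158), and Mt1 went from 2339 and 2936 to 1156 and 1267 (log2 change -1.11 ± 0.14, adjusted p = 0.000203). For both genes the change of the first interval did not pass, with -0.32 ± 0.18 and -0.36 ± 0.14. Fkbp5, a cochaperone of the receptor and a classical target, had 6664 and 5959 at 0 h, 3278 and 3147 at 4 h and 2321 and 2346 at 8 h (log2 change -0.46 ± 0.06, adjusted p = 0.000397); it was chosen after its values were seen. In the first interval it had changed by -0.97 ± 0.06. Tgm2, a transglutaminase, was at 17139 and 17394 at 4 h and 9274 and 9258 at 8 h (log2 change -0.90 ± 0.09, adjusted p = 4.97e-05). Ddit4, an inhibitor of mTORC1, had risen to 2177 and 1919 at 4 h from 1496 and 1734 and fell to 1258 and 1155 (log2 change -0.76 ± 0.09, adjusted p = 0.000119). Slc30a1, a zinc exporter that is no member of the list, rose from 615 and 574 to 985 and 908 (log2 change 0.67 ± 0.11, adjusted p = 0.00114).

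Genes of protein folding in the endoplasmic reticulum (ER) and of the unfolded protein response had risen over the first 4 h, and between 4 h and 8 h a few fell and a few rose. From 0 h to 4 h 23 of 26 tested members rose and 0 fell. From 4 h to 8 h 21 did not pass, 3 fell and 2 rose, and the list's median change was -0.01. Of all tested genes 6.41% fell and 4.84% rose in that step. Those that fell were Herpud1 and Syvn1, of ER-associated degradation, and Dnajb9, a cochaperone of BiP in the ER lumen. Herpud1 had 1842 and 1727 at 0 h, 7209 and 5492 at 4 h and 2125 and 2574 at 8 h (log2 change -1.43 ± 0.14, adjusted p = 3.87e-05). Dnajb9 read 502 and 481, 1605 and 1471 and 873 and 1062 at the 3 times (log2 change -0.67 ± 0.10, adjusted p = 0.000638), and Syvn1 read 2550.4 and 1996, 6441 and 4438 and 3018 and 2929 (log2 change -0.85 ± 0.14, adjusted p = 0.00161). In all 3 genes both 8 h libraries lay below both 4 h libraries and above both 0 h libraries.

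Hspa5, the chaperone BiP, was at 42739.6 and 36615 at 0 h, 110435 and 83469 at 4 h and 86437 and 81640.4 at 8 h. Its 2 later times overlapped (log2 change -0.19 ± 0.11, adjusted p = 0.292). The estimate depended on the 4 h libraries, with a log2 change of -0.39 omitting 4 h replicate 2. Sdf2l1, an ER cochaperone, read 573 and 464, 2311 and 1644 and 1787 and 1848 (adjusted p = 0.745). The members that rose were Pdia4, a disulfide isomerase, and Hsp90b1, the chaperone GRP94. Pdia4 went from 9554 and 7446 to 10637 and 10578 (log2 change 0.33 ± 0.08, adjusted p = 0.0204; 0.0910 omitting 8 h replicate 1, 0.206 omitting 4 h replicate 2, 0.0899 omitting 8 h replicate 2). Hsp90b1 went from 90086 and 71041 to 103102 and 94124 (log2 change 0.30 ± 0.09, adjusted p = 0.0497; 0.253 omitting 8 h replicate 1, 0.440 omitting 4 h replicate 2, 0.0780 omitting 8 h replicate 2). No member rose when any 1 of 8 h replicate 1, 4 h replicate 2 and 8 h replicate 2 was omitted; 6 rose without 4 h replicate 1 and 6 with the replicate block. Hspa5 and Hsp90b1 were chosen after their values were seen.

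The ER stress response element, CCAAT and CCACG with 9 bases between, was found in the promoters of 9 of 22 tested members in the table and in those of 0.137% of all 27025 genes. It is shown for Hspa5 and Pdia6, whose change from 4 h to 8 h did not pass, and for Syvn1, which fell. Whether these genes differed from one another was not tested. Capitals mark both parts of it.
Hspa5, chr2:34772005-34772063, plus strand: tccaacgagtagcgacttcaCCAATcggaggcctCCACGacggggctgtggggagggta
Pdia6, chr12:17266471-17266529, plus strand: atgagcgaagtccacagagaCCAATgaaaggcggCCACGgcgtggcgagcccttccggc
Syvn1, chr19:6046512-6046570, plus strand: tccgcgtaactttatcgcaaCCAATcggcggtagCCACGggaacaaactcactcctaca

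The ATF4 amino acid response, the transcription programme of the integrated stress response, had also risen and then fell in part. Of 25 tested members 16 rose and 1 fell during the first 4 h; between 4 h and 8 h 6 fell, 0 rose and 19 did not pass (3 fell without 4 h replicate 1, and 12 with the replicate block). Ddit3, the factor CHOP, was at 492 and 489 at 0 h, 1662 and 1322 at 4 h and 758 and 840.3 at 8 h (log2 change -0.89 ± 0.13, adjusted p = 0.000643). Chac1, a glutathione-degrading enzyme chosen after its values were seen, read 639 and 279, 1424 and 1202 and 551 and 543 (log2 change -1.26 ± 0.27, adjusted p = 0.00810; 0.0534 omitting 4 h replicate 1). Sesn2, a stress-induced regulator of mTORC1, read 1705 and 1410.0, 2618 and 2319 and 1834 and 1755 (log2 change -0.46 ± 0.08, adjusted p = 0.00332). All 3 genes were above both 0 h libraries at 4 h and lower again at 8 h, and in Chac1 a 0 h library exceeded the 8 h libraries. Atf4 itself went from 21678 and 24119 to 15913 and 18228 (log2 change -0.42 ± 0.08, adjusted p = 0.00457; 0.0575 omitting 8 h replicate 1, 0.0613 omitting 4 h replicate 2). Among 20 aminoacyl-tRNA synthetases, which charge tRNAs with amino acids, no call was made by limma or edgeR, 1 was higher at an unadjusted p under 0.05 and 1 in DESeq2; 4 were higher with the block.

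Sterol synthesis and uptake genes, the targets of SREBP-2, fell in this interval. Of 23 tested members 13 fell, 0 rose and 10 did not pass (8 fell without 4 h replicate 2), with a median of -0.34; from 0 h to 4 h 5 fell and the median was -0.03. With the replicate block 16 fell from 4 h to 8 h. Cyp51, the lanosterol demethylase, had 9598 and 8530.3 at 0 h, 9165 and 9315 at 4 h and 5613 and 6082 at 8 h (log2 change -0.66 ± 0.07, adjusted p = 4.50e-05). Sqle, squalene epoxidase, read 12141 and 10572, 10941 and 11213 and 7994 and 7738 (log2 change -0.49 ± 0.06, adjusted p = 0.000196). Their changes over the first 4 h, 0.03 ± 0.07 and -0.03 ± 0.06, did not pass, and both 8 h libraries were below all earlier ones. Hsd17b7 and Sc4mol (Msmo1), enzymes of the later part of the pathway, fell by 1.63-fold and 1.57-fold. The SREBP site TCACCCCAC was in 0 of 16 tested sterol genes with a promoter in the table, 0 of the 9 that fell, and in 0.614% of all genes. Of 14 fatty acid synthesis genes 2 fell, the desaturases Scd1 (-0.46 ± 0.11; adjusted p = 0.0127, 0.131 omitting 8 h replicate 1, 0.153 omitting 4 h replicate 2) and Scd2 (-0.22 ± 0.06; adjusted p = 0.0291, 0.0887 omitting 4 h replicate 1, 0.162 omitting 8 h replicate 1, 0.126 omitting 4 h replicate 2, 0.0743 omitting 8 h replicate 2), and 12 did not pass.

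Cytoskeletal targets of SRF and its cofactors, the MRTFs, which respond to actin polymerisation, fell as well. Of 24 tested members 11 fell, 0 rose and 13 did not pass (6 fell without 4 h replicate 2, and 21 with the replicate block); from 0 h to 4 h 1 rose and 1 fell. Vcl, vinculin of focal adhesions, had 31829 and 31351 at 0 h, 32418 and 32109 at 4 h and 21851 and 21933 at 8 h (log2 change -0.56 ± 0.06, adjusted p = 9.62e-05). Zyx, zyxin of the same structures, went from 22068 and 22269.5 to 15853 and 15609.7 (log2 change -0.49 ± 0.05, adjusted p = 4.97e-05), and Fhl2, a LIM protein and cofactor, from 5955 and 6452 to 4017 and 4377 (log2 change -0.56 ± 0.09, adjusted p = 0.000967). Actg1, cytoplasmic gamma-actin, went from 208244 and 231977 to 159213 and 170703 (log2 change -0.41 ± 0.08, adjusted p = 0.00444; 0.0582 omitting 4 h replicate 2). Vcl, Actg1 and Fhl2 are the cytoskeletal genes whose CArG boxes are printed above. Acta2, smooth muscle actin, read 306064 and 319355 at 4 h and 239020.0 and 256681 at 8 h and passed only with the block (adjusted p = 0.173, and 0.00696 with it). Nppb, the B-type natriuretic peptide and no member of the list, had the largest fall among genes with a mean of at least 50. It was at 3245 and 2530.4 at 0 h, 2287 and 2373 at 4 h and 503 and 469 at 8 h (log2 change -2.26 ± 0.23, adjusted p = 4.97e-05). Actg1 and Acta2 were chosen after their values were seen.

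YAP and TAZ targets, TGF-beta feedback genes and matrix genes also had more falls than rises. Of 18 tested YAP and TAZ targets 8 fell, 0 rose and 10 did not pass, after 6 rises and 6 falls from 0 h to 4 h. Ctgf (Ccn2), a matricellular protein, had 152487 and 128108 at 0 h, 95979.7 and 91314 at 4 h and 52310.2 and 44143 at 8 h (log2 change -0.96 ± 0.12, adjusted p = 0.000196). F3, tissue factor, read 47018 and 42816, 26637 and 25111 and 13576 and 12813 (log2 change -0.97 ± 0.10, adjusted p = 3.87e-05). These 2 genes fell in both intervals. Of 16 TGF-beta and BMP feedback genes 8 fell, 1 rose and 7 did not pass; omitting 8 h replicate 1 left 4 falls, omitting 4 h replicate 2 left 4 and omitting 8 h replicate 2 left 5. Pmepa1, an inhibitor of TGF-beta signalling, went from 7436 and 8268 to 3620.0 and 3554 (log2 change -1.13 ± 0.08, adjusted p = 4.04e-06) with no passing change before. Smad6, an inhibitor of BMP signalling, was the member that rose, from 72.7 and 74.7 to 110.1 and 121, and it lost its call whichever of the 4 libraries was omitted (adjusted p = 0.0392; 0.124 omitting 4 h replicate 1, 0.0959 omitting 8 h replicate 1, 0.140 omitting 4 h replicate 2, 0.186 omitting 8 h replicate 2).

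Of 29 extracellular matrix genes 9 fell, 0 rose and 20 did not pass; omitting 8 h replicate 1 left 5 falls, omitting 4 h replicate 2 left 4, and the replicate block gave 17. Timp3, a matrix-bound inhibitor of metalloproteinases, had the largest fall of the list. It had 46973 and 52150.0 at 0 h, 53001 and 59128 at 4 h and 15312 and 18028 at 8 h (log2 change -1.75 ± 0.11, adjusted p = 1.72e-06); its change in the first interval was 0.18 ± 0.11 (adjusted p = 0.268). Tnc, tenascin C, had risen to 163876 and 165800.0 at 4 h from 124091 and 95575 and fell to 95242 and 89419.9 (log2 change -0.84 ± 0.10, adjusted p = 0.000154). Both 8 h libraries of Tnc were below both of its 0 h libraries. Mmp14, a membrane-bound metalloproteinase, fell by 1.28-fold and Col4a1, a basement membrane collagen, by 1.26-fold. Adamts5, an aggrecan-cleaving protease outside the list, rose from 883 and 855 to 1578 and 1977 (log2 change 1.02 ± 0.25, adjusted p = 0.0166; 0.0567 omitting 4 h replicate 1, 0.0965 omitting 4 h replicate 2, 0.125 omitting 8 h replicate 2).

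**Figure D3:**
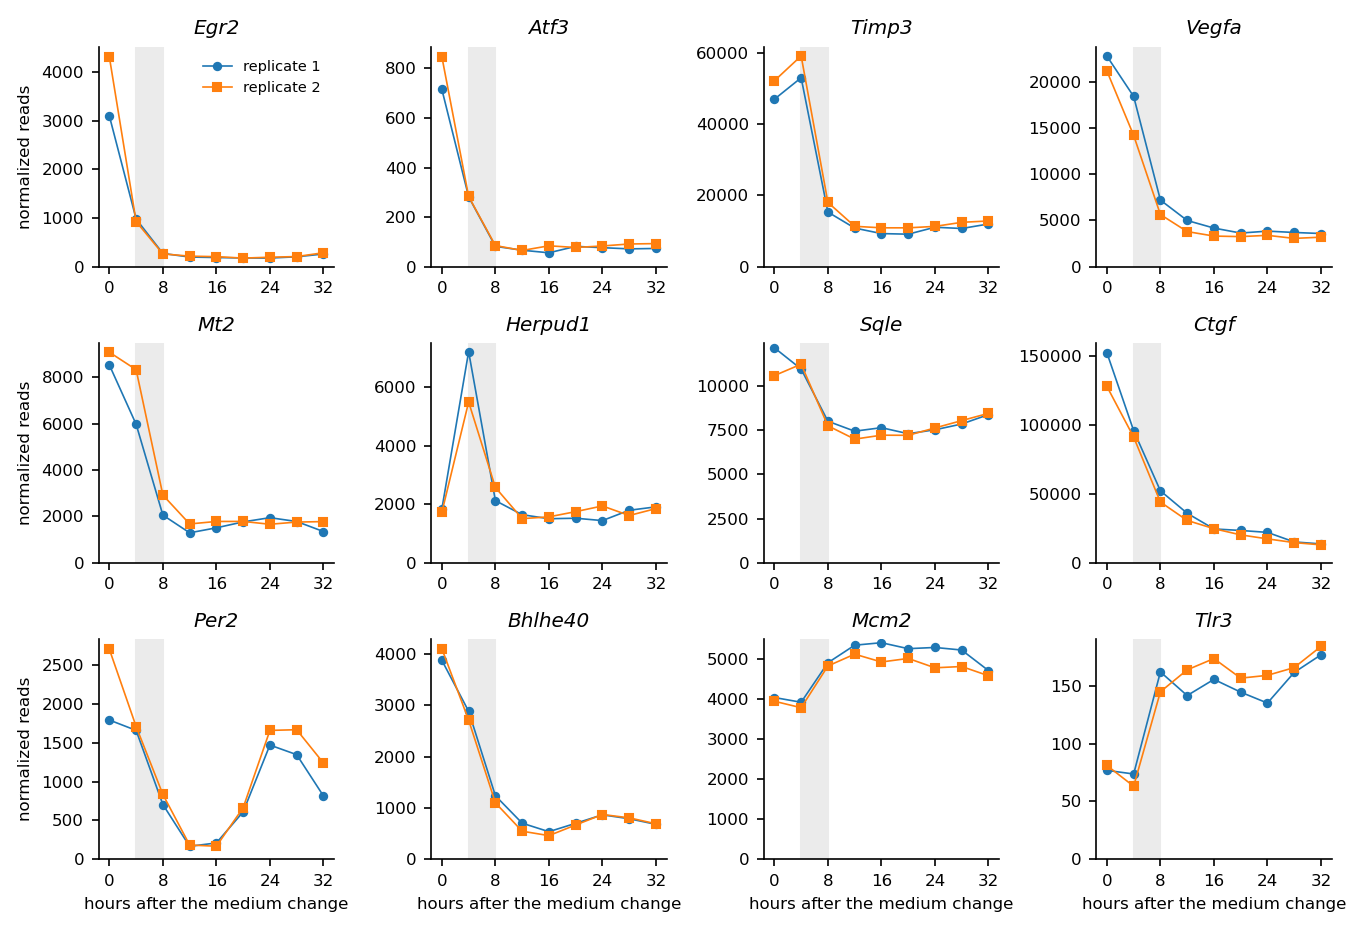
Levels of 12 genes in every library (normalized reads, vertical axis from 0) against hours after the medium change; circles and squares are replicates 1 and 2, and the grey band marks the step from 4 h to 8 h. Egr2 and Atf3 decline from 0 h on, Timp3 and Sqle drop within the band, Herpud1 peaks at 4 h, Per2 falls and comes back by 24 h, and Mcm2 and Tlr3 step up.

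Clock genes with E-box or D-box elements fell in large part. Of 14 tested members 8 fell, 0 rose and 6 did not pass (5 fell when 4 h replicate 1 was omitted, and 4 when 8 h replicate 2 was); from 0 h to 4 h 7 had fallen. With the replicate block 9 were lower and 1 higher, Hlf (log2 change 0.56, adjusted p = 9.2e-05 with the block), which did not pass without it. Per2, a repressor of CLOCK and BMAL1, had 1795 and 2709 at 0 h, 1662 and 1712 at 4 h and 704 and 835 at 8 h (log2 change -1.14 ± 0.20, adjusted p = 0.00241). Nr1d2, the repressor REV-ERB beta, read 1236 and 1462, 592 and 498 and 325 and 282 (log2 change -0.84 ± 0.11, adjusted p = 0.000224). Bhlhe40, also a repressor at E-boxes and a member of the hypoxia list, went from 2884 and 2712 to 1236 and 1098 (log2 change -1.26 ± 0.10, adjusted p = 1.17e-05). Tef, a PAR bZIP factor that binds D-boxes, went from 2919 and 3047 to 1899 and 1918 (log2 change -0.64 ± 0.11, adjusted p = 0.00241). In each of these the 8 h libraries lay wholly below those of 4 h. Per3 (-0.72 ± 0.16; adjusted p = 0.00972, 0.0749 omitting 4 h replicate 1, 0.0857 omitting 8 h replicate 2), Nr1d1 (-0.61 ± 0.16; adjusted p = 0.0220, 0.157 omitting 4 h replicate 1, 0.187 omitting 8 h replicate 2) and Usp2 (-0.49 ± 0.14; adjusted p = 0.0378, 0.186 omitting 4 h replicate 1, 0.0767 omitting 4 h replicate 2, 0.294 omitting 8 h replicate 2) also fell. The remaining one was the repressor Ciart, listed as Gm129, which went from 186 and 144 to 66.4 and 56.3 (log2 change -1.41 ± 0.28, adjusted p = 0.00580; 0.0521 omitting 8 h replicate 2).

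Per1, the period gene switched on directly by the glucocorticoid receptor, did not pass in this step. It was at 7102 and 8058 at 0 h, 3618 and 3344 at 4 h and 2981 and 2977 at 8 h (log2 change -0.22 ± 0.08, adjusted p = 0.10; 0.0250 with the replicate block). Cry1, a partner of the period proteins, had risen from 614 and 847 to 1346 and 1569 and read 1095 and 1309 at 8 h (adjusted p = 0.342). Cry2 had risen from 759 and 891 to 1344 and 1318 and fell back to 809.9 and 786 (log2 change -0.74 ± 0.12, adjusted p = 0.00161), between the levels of its 0 h libraries. Dbp was low, at 11.6 and 14.2 and 7.28 and 12.6, and its replicates overlapped. On the opposite arm Arntl, which encodes BMAL1, rose from 705 and 811 to 984 and 1000.0 (log2 change 0.39 ± 0.09, adjusted p = 0.0109; 0.0931 omitting 4 h replicate 1, 0.0515 omitting 8 h replicate 1, 0.0676 omitting 8 h replicate 2), while Nfil3, a repressor at D-boxes, fell from 1759 and 1931 to 1208 and 1393 (log2 change -0.51 ± 0.11, adjusted p = 0.00928; 0.0911 omitting 8 h replicate 1, 0.0919 omitting 4 h replicate 2). Clock was at 2348 and 2545 and 2497 and 2578 and did not pass. Of 13 other clock components, Cry2 and Csnk1e, a kinase of the period proteins (-0.37 ± 0.06; adjusted p = 0.00135), fell, Timeless rose (0.42 ± 0.10; adjusted p = 0.0164, 0.137 omitting 8 h replicate 1, 0.108 omitting 4 h replicate 2), and 10 did not pass.

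The E-box CACGTG was found in 4 of 10 tested clock genes of the list with a promoter in the table and in 8.09% of all genes, and the D-box TTATGTAA in 1 of 10 and in 1.11%. The E-box was in 2 of the 6 genes that fell and had a promoter there. Per1 and Bhlhe41, which did not pass, also held it. Windows of Gm129 and Tef with E-boxes and of Per3 with D-boxes, 3 genes that fell, follow with the elements in capitals.
Gm129, chr3:95882247-95882364, minus strand: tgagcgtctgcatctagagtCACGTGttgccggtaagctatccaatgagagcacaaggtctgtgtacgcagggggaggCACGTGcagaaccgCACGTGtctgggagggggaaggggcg
Tef, chr15:81802526-81802571, plus strand: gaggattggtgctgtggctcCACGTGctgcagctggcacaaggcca
Per3, chr4:151044796-151044890, minus strand: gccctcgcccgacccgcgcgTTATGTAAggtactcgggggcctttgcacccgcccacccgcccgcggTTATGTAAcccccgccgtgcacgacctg

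DNA replication genes, expressed at the transition from G1 to S phase, rose by small amounts. Of 30 tested members 16 rose, 0 fell and 14 did not pass (23 rose with the replicate block), with a median of 0.22. From 0 h to 4 h 1 rose and the median was -0.02. Mcm2, a subunit of the replicative helicase, had 4042 and 3949 at 0 h, 3924 and 3787 at 4 h and 4912 and 4831 at 8 h (log2 change 0.34 ± 0.06, adjusted p = 0.00397). Mcm4, another subunit, went from 7521 and 7831 to 9141 and 9146 (log2 change 0.25 ± 0.05, adjusted p = 0.00627). Both 8 h libraries of either gene were above all 4 earlier ones. The count rested on all 4 libraries: omitting 4 h replicate 1 or 8 h replicate 1 left 5, omitting 4 h replicate 2 left 3 and omitting 8 h replicate 2 left 4, while equal totals gave 26. Of 28 mitosis genes 6 rose, 0 fell and 22 did not pass (9 rose with the replicate block), after 12 rises and 1 fall from 0 h to 4 h. Omitting 8 h replicate 1 left 2 of these rises, omitting 4 h replicate 2 left 0 and omitting 8 h replicate 2 left 1, while equal totals gave 15. Kif20a, a kinesin of cytokinesis, went from 2677 and 2497 to 3309 and 3081 (log2 change 0.30 ± 0.06, adjusted p = 0.00444; 0.0527 omitting 8 h replicate 1, 0.0563 omitting 4 h replicate 2). Cdkn1a, the CDK inhibitor p21, fell from 5394 and 4549.9 to 4089 and 3801 (log2 change -0.33 ± 0.08, adjusted p = 0.0151; 0.135 omitting 4 h replicate 1, 0.119 omitting 8 h replicate 2).

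An E2F site, TTTGGCGC or TTTCCCGC on either strand, lay in the promoters of 8 of 24 tested replication genes in the table and in those of 1.80% of all genes. The CHR element TTTGAA of mitosis genes was in 17 of 24 tested members and in 20.2% of all genes. Of the mitosis genes that rose and had a promoter in the table, 2 of 5 held it. An E2F site was in 6 of the 14 replication genes that rose and had a promoter there. Mcm6 and Cdc6, which did not pass, also held one. Windows of Mcm5, Mcm7 and Pola1 are shown with the site in capitals. Mcm5 encodes a helicase subunit and changed by 0.22 (adjusted p = 0.0192), Mcm7 another (0.22, adjusted p = 0.0319; 0.140 omitting 4 h replicate 1, 0.108 omitting 8 h replicate 1, 0.0872 omitting 4 h replicate 2, 0.140 omitting 8 h replicate 2), and Pola1 the catalytic subunit of DNA polymerase alpha (0.27, adjusted p = 0.0186; 0.107 omitting 4 h replicate 1, 0.0746 omitting 8 h replicate 1, 0.050 omitting 4 h replicate 2, 0.0978 omitting 8 h replicate 2).
Mcm5, chr8:75109340-75109387, plus strand: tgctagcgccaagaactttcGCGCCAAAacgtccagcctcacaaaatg
Mcm7, chr5:138172021-138172068, minus strand: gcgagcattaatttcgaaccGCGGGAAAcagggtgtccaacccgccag
Pola1, chrX:93632266-93632313, minus strand: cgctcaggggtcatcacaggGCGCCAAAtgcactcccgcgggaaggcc

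Among the largest rises were genes that had fallen during the first 4 h. Both intervals share the 4 h libraries, so a low value there adds to the fall and to the rise alike. Cdh18, a cadherin, had 543 and 719 at 0 h, 110.5 and 127 at 4 h and 312 and 513 at 8 h (log2 change 1.75 ± 0.27, adjusted p = 0.000908). Tspan33, a tetraspanin, read 40.6 and 33.0, 13.6 and 11.6 and 37.3 and 44.8 (log2 change 1.63 ± 0.28, adjusted p = 0.00193). Serpinb9, an inhibitor of granzyme B, read 172 and 173, 109.5 and 126 and 192 and 244 (log2 change 0.87 ± 0.14, adjusted p = 0.00117). In these 3 the 4 h libraries were the lowest of the 3 times. Tlr3, the receptor for double-stranded RNA, was at 76.8 and 81.0 at 0 h, 73.7 and 63.1 at 4 h and 162 and 145 at 8 h (log2 change 1.16 ± 0.13, adjusted p = 9.62e-05). Eml6, a microtubule-associated protein, went from 124 and 99.1 to 229 and 213 (log2 change 0.99 ± 0.12, adjusted p = 0.000172). Txnip, an inhibitor of glucose uptake, rose in both intervals, to 718 and 758 and then 1193 and 1725 (log2 change 0.96 ± 0.23, adjusted p = 0.0152; 0.0688 omitting 4 h replicate 1, 0.0722 omitting 4 h replicate 2, 0.151 omitting 8 h replicate 2). Npas3 (0.90 ± 0.22; adjusted p = 0.0169, 0.148 omitting 4 h replicate 1, 0.137 omitting 8 h replicate 2) and Cyp4v3 (0.93 ± 0.20; adjusted p = 0.00745, 0.0554 omitting 4 h replicate 2, 0.0606 omitting 8 h replicate 2) had both fallen before and rose here.

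Of 20 NF-kB and cytokine genes 3 rose, 4 fell and 13 did not pass; omitting 4 h replicate 1 left 1 fall, omitting 8 h replicate 1 or 4 h replicate 2 left 2, omitting 8 h replicate 2 left 0, and the block gave 7. Vcam1, an adhesion receptor for leukocytes, rose from 779 and 809.6 to 1242 and 1295 (log2 change 0.67 ± 0.14, adjusted p = 0.00558), and Cxcl5, a neutrophil chemokine, from 2474 and 2449 to 3601 and 3839 (log2 change 0.59 ± 0.12, adjusted p = 0.00558). Ptgs2, the inducible cyclooxygenase and a gene whose induction glucocorticoids restrain, read 96949 and 68195 at 0 h, 50539.9 and 37553 at 4 h and 26197 and 19066 at 8 h (log2 change -0.96 ± 0.23, adjusted p = 0.0154; 0.113 omitting 4 h replicate 1, 0.143 omitting 8 h replicate 2). It had fallen in the first interval as well (-0.90). Of 15 interferon-stimulated genes 1 rose (0 when 4 h replicate 2 or 8 h replicate 2 was omitted) and 14 did not pass. Among all tested genes 4.84% rose and 6.41% fell. Krt8 and Krt18, keratins of simple epithelia, are the 2 of 3 tested epithelial markers that fell. Krt8 went from 907 and 859.8 to 536 and 410.4 (log2 change -0.91 ± 0.17, adjusted p = 0.00408; 0.0539 omitting 8 h replicate 2), and Krt18 from 80.4 and 70.8 to 42.8 and 36.8 (log2 change -0.91 ± 0.23, adjusted p = 0.0210; 0.109 omitting 4 h replicate 1, 0.0619 omitting 8 h replicate 1, 0.0764 omitting 4 h replicate 2, 0.143 omitting 8 h replicate 2).

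Several groups made no call in limma. These were the aminoacyl-tRNA synthetases, 7 replication-dependent histones, 22 cytosolic ribosomal proteins, 23 ribosome biogenesis genes and 17 lysosome and autophagy genes, 89 tested genes in all, of which 4 were higher and 11 lower at an unadjusted p under 0.05. EdgeR called 1 of them and DESeq2 called 1. Of the smaller lists, the 18 cyclins D, CDK inhibitors and p53 targets had 2 falls, Cdkn1a and the stress gene Gadd45a (-0.88 ± 0.22; adjusted p = 0.0172, 0.105 omitting 4 h replicate 1, 0.0938 omitting 8 h replicate 1, 0.0650 omitting 8 h replicate 2), and 1 rise, the pocket protein Rbl1 (0.29 ± 0.07; adjusted p = 0.0196, 0.101 omitting 4 h replicate 1, 0.125 omitting 8 h replicate 1, 0.0612 omitting 4 h replicate 2, 0.0562 omitting 8 h replicate 2). The 14 cytosolic heat shock genes had 1 fall (Cryab, a small heat shock protein, -0.32), the 15 NRF2 antioxidant targets 1 (Srxn1, sulfiredoxin, -0.44) and the 10 MYC network genes 1 (Mycn, -0.70). The block gave 2, 5 and 2 falls. The share of falls among all tested genes was 6.41% without the block. Srxn1 lost its call in 1 omission (0.0777 omitting 4 h replicate 2) and Mycn in 3 (0.129 omitting 8 h replicate 1, 0.216 omitting 4 h replicate 2, 0.112 omitting 8 h replicate 2). With the replicate block 15 of the 22 ribosomal protein genes were lower, at a list median of -0.14 with the deposited scaling. Without the block 0 were lower in limma with either scaling, in edgeR or in DESeq2. Markers of leukocytes, endothelium, adipocytes, skeletal muscle and neurons also had no call in limma, edgeR or DESeq2. Only 11 of these 37 genes had a mean of at least 10, 7 of the 37 were at 0 in all 4 libraries, and 1 of the 11 was lower at an unadjusted p under 0.05.

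To follow the early response without the same libraries choosing and measuring it, genes that had changed at least 2-fold from 0 h to 4 h in replicate 1 were followed in replicate 2. Of 42 genes chosen as higher at 4 h, 8 went back by at least 1.5-fold from 4 h to 8 h in replicate 2, 3 went on rising by that much and 31 stayed within 1.5-fold. Their median log2 change from 4 h to 8 h was -0.05, and 36 of the 42 were still at least 1.5-fold above 0 h in replicate 2 at 8 h. Of 75 genes chosen as lower at 4 h, 23 fell by at least a further 1.5-fold, 8 came back by that much and 44 stayed within it. Their median change was -0.28, and 66 of the 75 were still at least 1.5-fold below 0 h. With equal totals, of 64 lower genes 13 fell further and 13 came back by 1.5-fold, and of 57 higher genes 5 went back and 5 went on. Among all 10953 genes with a mean of at least 50, 3.12% fell and 1.71% rose by 1.5-fold in replicate 2 over this interval. Both shares are with the deposited scaling and were not computed with equal totals. These counts describe 1 library at each time and carry no test.

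With replicate 2 choosing and replicate 1 followed, 79 higher genes had a median of -0.21, with 17 going back and 3 going on, and 126 lower genes had a median of -0.10, with 23 going on and 14 coming back. At 8 h 41 of these 79 were still at least 1.5-fold above 0 h and 86 of the 126 still 1.5-fold below, so that the share was 51.9% of the higher genes, beside 85.7% with replicate 1 choosing, and 68.3% of the lower genes, beside 88.0%. The background in replicate 1 was 2.46% falling and 0.776% rising. The sign of the small median of the higher genes depended on the choice of fold and on the scaling, as given at the end; the median of the lower genes was -0.16 with a 1.5-fold choice and -0.085 with equal totals. Of the genes chosen as higher in replicate 1, the 8 that went back were Btc, Chac1, Ddit3, Gpr149, Herpud1, Piga, Ryr1 and Syvn1. The 3 that went on were Akap17b, Rpusd3 and Kcnj2, an inward rectifier potassium channel. Kcnj2 had 41.5 and 31.6 at 0 h, 95.9 and 112 at 4 h and 167 and 205 at 8 h (log2 change 0.83 ± 0.16, adjusted p = 0.00461; 0.0566 omitting 8 h replicate 2). Adam12, a membrane metalloproteinase, rose from 6352 and 3751 to 15794 and 15427 and read 13988 and 13887 at 8 h (log2 change -0.16 ± 0.15, adjusted p = 0.583). Runx1t1, a transcriptional corepressor, also did not pass, with 61.4 and 57.7, 192 and 214 and 175 and 248 at the 3 times. Among the genes chosen as lower, Angpt1, a ligand of the receptor Tie2, read 1518 and 2952, 461 and 739 and 887 and 1595; it did not pass (adjusted p = 0.0751, and 1.04e-06 with the block, 0.0327 with equal totals and 0.0435 omitting 8 h replicate 1). Kcnj2, Adam12, Runx1t1 and Angpt1 were chosen after their values were seen.

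**Figure D4:**
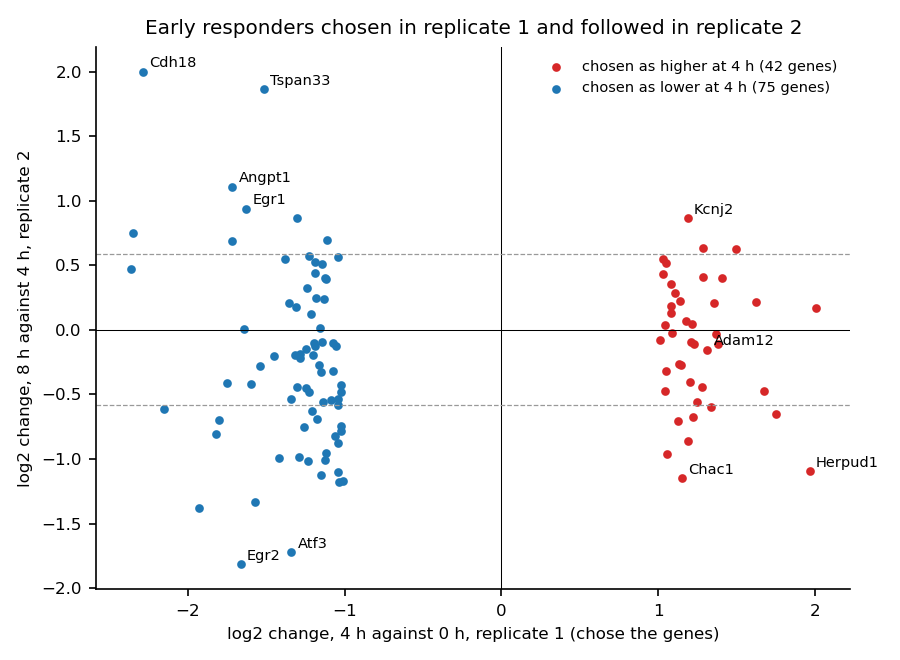
Each point is a gene that changed at least 2-fold from 0 h to 4 h in replicate 1 (horizontal axis, log2), plotted against its change from 4 h to 8 h in replicate 2 (vertical axis, log2); dashed lines mark 1.5-fold. Of the 42 genes on the right 31 lie between the lines and 8 below them, and of the 75 on the left 44 lie between the lines, 23 below and 8 above.

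The same step 1 day later, from 28 h to 32 h, shares no library with it and falls at the same hours of the next cycle. No gene passed from 28 h to 32 h in limma (0.0%), 118 did so at an unadjusted p under 0.05, edgeR called 0, DESeq2 called 3 and the block fit 2. The difference between the steps passed for 382 genes (3.08%), 90 with a more positive change on the first day (0.726%) and 292 with a more negative one (2.36%), and 1551 passed with the block. With equal totals 69.2% of the calls were positive, beside 23.6% with the deposited scaling. Omitting any 1 of the 8 libraries other than 4 h replicate 1 brought the count to between 153 and 236.

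Egr2, Nppb and Timp3 fell on the first day and changed by 0.41 ± 0.13, 0.24 ± 0.23 and 0.10 ± 0.11 from 28 h to 32 h. Their differences between the days were -2.24 ± 0.18 (adjusted p = 5.18e-05), -2.49 ± 0.33 (adjusted p = 0.00132) and -1.85 ± 0.15 (adjusted p = 5.18e-05). Of the immediate early genes 8 of 26 differed in this way, of the sterol genes 9 of 23, of the SRF targets 7 of 24 and of the growth factors 6 of 13, every one of them more negative on the first day. Of the DNA replication genes 5 of 30 differed, each more positive on the first day.

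Several clock genes had close estimates on both days. Per3 changed by -0.72 ± 0.16 on the first day and -0.73 ± 0.16 on the second, Tef by -0.64 ± 0.11 and -0.63 ± 0.11, Nr1d2 by -0.84 ± 0.11 and -0.66 ± 0.11, and Arntl by 0.39 ± 0.09 and 0.33 ± 0.09. The differences between the days were 0.01 ± 0.22, -0.01 ± 0.16, -0.18 ± 0.15 and 0.06 ± 0.12 and did not pass, which with 2 libraries at each time does not show that the days were alike. Of the 14 genes of the list with E-box or D-box elements 1 differed, Bhlhe40, with -1.26 ± 0.10 and -0.22 ± 0.10 (log2 change -1.04 ± 0.15, adjusted p = 0.00183 for the difference). The difference of Hlf passed only with the replicate block (0.62, adjusted p = 0.0022). Outside that list, the differences of Nfil3 and Timeless did not pass in the main fit but did under alternatives. That of Nfil3 was -0.53 with the block (adjusted p = 0.00025) and passed in DESeq2 (adjusted p = 0.030). That of Timeless was 0.53 with the block (adjusted p = 8.5e-05) and passed in DESeq2 (adjusted p = 0.021) and with equal totals (adjusted p = 0.028). Per2 changed by -1.14 ± 0.20 and -0.58 ± 0.20, and the difference did not pass (adjusted p = 0.366; 1349 and 1671 at 28 h and 816 and 1241 at 32 h).

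**Figure D5:**
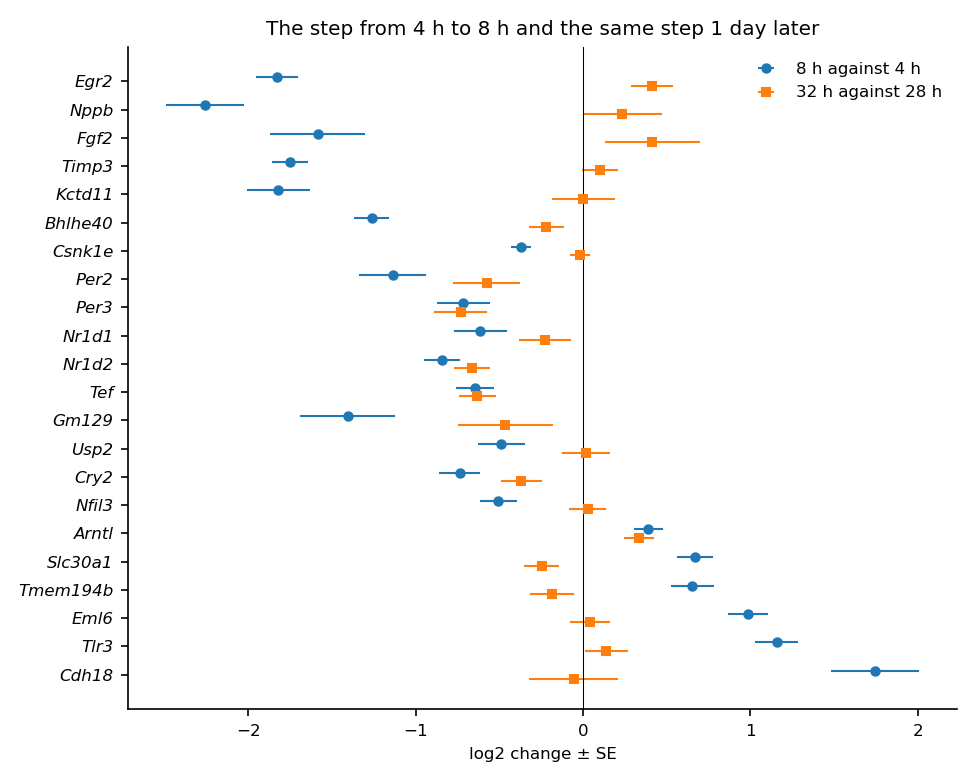
Log2 change ± SE of 22 genes between 4 h and 8 h (circles) and 1 day later (squares), from limma on all 18 libraries. Egr2, Nppb, Fgf2, Timp3 and Kctd11 are far below 0 on the first day and near or above 0 on the second, whereas the pairs of Per3, Tef, Nr1d2 and Arntl lie close together.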

How the data were processed

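RNA was sequenced from 18 NIH3T3 libraries. The deposited table holds a normalized signal for each gene and library: read counts per gene divided by a size factor for each library, as its values show. TopHat, HTSeq, DESeq and the genome build mm9 are named in the submitters' processing notes, and the annotation is not given in the sources used here, so gene coordinates are not printed. Whole reads were recovered within 0.02 reads. Of 21937 genes, 12393 with a mean of at least 10 were tested on log2(value + 1) with limma 3.58.1 (R 4.3.3), a variance trend and all 18 libraries, and p-values were adjusted by Benjamini-Hochberg. Contrasts were 8 h against 4 h, 4 h against 0 h, 32 h against 28 h and the difference of the last from the first, all 2-sided.

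The members, the 35 gene lists (632 genes, 557 tested) and the tests were chosen with earlier results of these data known. Named genes were the 12 largest passing changes each way (mean of at least 50, groups not overlapping), up to 4 members of each list by p, clock genes, the 5 largest differences each way and 3 early responders each way; others are stated, and a few are not reported here. Alternatives were pseudocounts of 0.5 and 4, filters, scalings, eBayes settings, the 4 libraries alone, a replicate block, edgeR 4.0.16, DESeq2 1.42.0, a 1.2-fold minimum and leaving out each library. Same-numbered libraries deviated together in 36 of 36 pairs of times (r 0.230 to 0.502), so the numbers pair them. The labels give no source for this. The main fit leaves the pairing out, so a gene that did not pass in it is not shown to be unchanged. Where 1 library remained at a time, its spread was taken from the other times. The fits were tested on simulated data. Figures used matplotlib 3.10.9.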

Additional observations from a re-analysis of the deposited data

Results flagged for a closer look

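These genes changed differently from 4 h to 8 h than from 28 h to 32 h, by a test of the difference itself in limma (first day minus second day, log2 ± SE). More negative on the first day were Nppb (-2.49 ± 0.33, adjusted p = 0.00132), Egr2 (-2.24 ± 0.18, 5.18e-05), Fgf2 (-2.00 ± 0.40, 0.0152), Timp3 (-1.85 ± 0.15, 5.18e-05), Kctd11 (-1.82 ± 0.27, 0.00209), Bhlhe40 (-1.04 ± 0.15, 0.00183) and Csnk1e (-0.35 ± 0.08, 0.0405). More positive were Cdh18 (1.80 ± 0.38, adjusted p = 0.0185), Tlr3 (1.02 ± 0.19, 0.00894), Eml6 (0.95 ± 0.17, 0.00835), Slc30a1 (0.92 ± 0.15, 0.00416) and Tmem194b (0.84 ± 0.19, 0.0244). The difference of Cdh18 lost its call on leaving out a library (0.0514 omitting 4 h replicate 1, 0.0894 omitting 32 h replicate 1, 0.0739 omitting 8 h replicate 2, 0.0796 omitting 28 h replicate 2). So did that of Fgf2 (0.0649 omitting 8 h replicate 1, 0.0615 omitting 32 h replicate 1, 0.0712 omitting 4 h replicate 2, 0.0699 omitting 28 h replicate 2, 0.0536 omitting 32 h replicate 2), that of Csnk1e (0.105 omitting 4 h replicate 1, 0.0844 omitting 28 h replicate 1, 0.158 omitting 32 h replicate 1, 0.145 omitting 8 h replicate 2, 0.137 omitting 28 h replicate 2, 0.0889 omitting 32 h replicate 2) and that of Tmem194b (0.0969 omitting 8 h replicate 1, 0.0932 omitting 32 h replicate 1, 0.107 omitting 4 h replicate 2, 0.106 omitting 28 h replicate 2, 0.0786 omitting 32 h replicate 2).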

How the results depend on the processing

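Of 115 named genes that passed from 4 h to 8 h, 47 did so under every one of up to 17 alternatives that tested them and 68 were lost under at least 1; of 77 that did not pass, 36 passed under at least 1. None of the 115 changed sign, and 24 of the 77 did. All values in the table were whole reads within 0.02 after division by their library's step (100%), and on these edgeR called 1381 genes and DESeq2 1405, beside 1395 in limma. With equal totals 2381 genes passed (1869 higher, 512 lower), in the 4 libraries alone 458 (76 and 382), with the replicate block 3043 (1346 and 1697) and with a 1.2-fold minimum 138 (10 and 128, of which 41 fell at least 2-fold). The 15 rises of at least 2-fold became 7 with a pseudocount of 4, 32 without a filter, 5 with a mean of at least 50, 31 with equal totals, 4 in the 4 libraries alone, 29 with the block, 8 in edgeR, 5 in DESeq2 and 3 with the 1.2-fold minimum. Leaving out 1 library gave 572 to 1106 calls (166 to 461 higher, 406 to 645 lower), with 10 to 27 rises and 43 to 75 falls of at least 2-fold. From 0 h to 4 h the block gave 4662 calls (2327 and 2335), and leaving out 1 library 971 to 2509 (504 to 1285 higher, 467 to 1224 lower; 971 without 0 h replicate 2 and 1459 without 4 h replicate 1). From 28 h to 32 h 2 genes passed with the block and 3 in DESeq2, all lower, and leaving out 1 library gave 0. For the difference of the steps equal totals gave 663 calls (459 positive), quantile normalization 144 positive ones, the block 1551 (555 and 996), DESeq2 600 (147 and 453) and leaving out 1 library 153 to 380 (13 to 109 positive, 139 to 271 negative). The median change from 4 h to 8 h of the early responders higher at 4 h, -0.05, was 0.028 when a 1.5-fold change chose them and 0.087 with equal totals. The causes of these shifts were not tested. The replicate block, eBayes settings, 1.2-fold minimum and 4 libraries alone leave each estimate unchanged, so they could not change a sign. With 2 libraries at each time, many small changes lost their call when 1 was left out, and counting error is largest for genes near 10 normalized reads.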
